A study of Mus musculus with 96 samples.

Results

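The 16 libraries described here hold polyadenylated RNA of mouse back-skin epidermis taken at circadian time 12 (CT12), 4 libraries from each of 4 genotypes. They were chosen by their labelled time alone, out of 96 libraries that cover the same genotypes at 6 times. All mice were female C57BL/6, 8 weeks old and held in constant darkness for 156 to 176 h, and the epidermis was freed from the skin with dispase. RERE, EpiRE and BRE mice were all homozygous for a stopped Arntl allele (Arntl stopFL/stopFL) that Cre sets free. RERE mice carried 1 copy of each driver, K14Cre tg/wt for the epidermis together with Syt10-Cre tg/wt for the brain. EpiRE mice had the epidermal driver (K14Cre tg/wt) and lacked the brain driver (Syt10-Cre wt/wt). BRE mice had the brain driver (Syt10-Cre tg/wt) and lacked the epidermal driver (K14Cre wt/wt). WT mice carried intact Arntl wt/wt with both drivers, written K14Cre wt/tg for one and Syt10-Cre tg/wt for the other, so they check for the Cre transgenes but not for the stopped allele. K14Cre is active in basal keratinocytes and their descendants, so cells of other origin in a RERE or EpiRE extract keep the stopped allele. Each library is labelled as a biological replicate from 1 of 4 mice.

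The mammalian clock is a loop of transcription. BMAL1 (the product of Arntl) pairs with CLOCK or its relative NPAS2 and switches on genes with E-box elements, among them those of the PER and CRY repressors, the REV-ERB receptors (Nr1d1, Nr1d2) and the PAR bZIP factors (Dbp, Tef, Hlf). PER and CRY proteins block BMAL1, and REV-ERBs silence Arntl, Npas2, Nfil3 and Cry1 through ROR elements. In epidermis the clock is known for timing DNA replication and division of basal keratinocytes. CT12 is the start of the subjective night, when mice with intact clocks become active. For EpiRE mice, which lack the brain driver, it names the time of sampling, and whether they kept this phase was not tested.

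BMAL1 binds the E-box CACGTG, and the PAR bZIP factors bind the D-box TTATGTAA. Both were searched on either strand in RefSeq promoter windows (GRCm38.p6, 250 bases before to 50 after each start), and the 2 motifs do not overlap in letters. Windows were found for 21 of the 27 genes in the clock lists, 31 windows in all. An E-box lay in 6 of these windows (19.4%), against 7.15% of 32851 windows of all genes, and the genes were Bhlhe41, Ciart, Cry1, Per1 and Tef. A D-box lay in 1 window (3.23%), that of Per3, against 0.938% of all windows. The 4 windows below are shown because they belong to the genes with a motif that differed between BRE and WT at CT12. Capitals mark the motif, and each sequence runs 5′ to 3′ on the strand of its gene: Ciart chr3:95882179-95882478 (minus strand, 3 E-boxes), Tef chr15:81802423-81802722 (plus strand, 1 E-box), Cry1 chr10:85185005-85185304 (minus strand, 1 E-box) and Per3 chr4:151044616-151044915 (minus strand, 2 D-boxes). A match describes letters and is not evidence of binding.
Ciart: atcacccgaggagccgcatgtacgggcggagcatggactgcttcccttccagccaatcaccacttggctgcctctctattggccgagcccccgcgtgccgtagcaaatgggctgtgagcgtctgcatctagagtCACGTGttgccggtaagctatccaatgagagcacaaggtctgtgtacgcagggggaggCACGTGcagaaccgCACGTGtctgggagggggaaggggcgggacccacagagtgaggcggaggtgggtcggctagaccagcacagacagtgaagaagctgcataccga
Tef: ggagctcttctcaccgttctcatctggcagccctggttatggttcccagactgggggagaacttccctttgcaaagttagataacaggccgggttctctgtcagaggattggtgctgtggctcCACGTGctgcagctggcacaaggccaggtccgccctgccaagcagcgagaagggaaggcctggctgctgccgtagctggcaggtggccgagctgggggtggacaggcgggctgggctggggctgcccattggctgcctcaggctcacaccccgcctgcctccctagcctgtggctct
Cry1: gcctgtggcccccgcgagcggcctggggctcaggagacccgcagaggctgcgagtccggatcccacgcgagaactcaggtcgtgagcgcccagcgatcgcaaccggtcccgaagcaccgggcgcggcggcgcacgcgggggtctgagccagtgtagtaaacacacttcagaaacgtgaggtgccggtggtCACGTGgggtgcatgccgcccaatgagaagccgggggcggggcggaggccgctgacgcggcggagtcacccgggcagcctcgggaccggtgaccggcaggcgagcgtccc
Per3: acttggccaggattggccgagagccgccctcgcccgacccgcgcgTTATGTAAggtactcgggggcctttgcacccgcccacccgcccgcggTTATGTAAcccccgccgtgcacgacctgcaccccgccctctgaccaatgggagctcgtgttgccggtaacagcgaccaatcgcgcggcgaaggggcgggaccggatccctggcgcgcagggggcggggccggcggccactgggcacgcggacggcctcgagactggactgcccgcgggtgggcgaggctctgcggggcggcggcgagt

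Recovered depth was 11.1 to 18.5 M reads per library at CT12 (11.1 to 19.9 M over all 96), with means of 14.9 M in RERE, 15.0 M in EpiRE, 13.3 M in BRE and 16 M in WT. The rank correlation of levels across genes was 0.970 to 0.993 for every pair of libraries, 0.970 to 0.984 between BRE libraries and those of another genotype and 0.981 to 0.993 among BRE libraries. The median SD of a gene over its 4 libraries was 0.133 log2 units in RERE, 0.124 in EpiRE, 0.137 in BRE and 0.137 in WT. In the companion tables of a second rhythm program, columns 13 to 16 carry codes whose leading digits are 4, 4, 4, 4 in RERE, 5, 3, 3, 3 in EpiRE, 6, 6, 1, 2 in BRE and 4, 4, 4, 4 in WT. No source used here explains the digit, so CT12 is taken for EpiRE and BRE from their titles and column headings. Summed levels of marker genes for endothelial cells (at most 0.422 RPKM, reads scaled to gene length and library depth, in any library), adipocytes (at most 1.2) and muscle (at most 2.12) were near 0, and Emcn was at 0 in all 16 libraries. Hair follicle markers summed to 339.8 to 444.1 RPKM in RERE, 270.5 to 390.3 in EpiRE, 358.2 to 669.0 in BRE and 411.4 to 714.2 in WT. T cell markers summed to 41.9 to 55.0 RPKM in RERE, 50.6 to 81.8 in EpiRE, 51.8 to 75.2 in BRE and 25.2 to 52.8 in WT. In such bulk extracts, fewer cells of a type and less RNA per cell cannot be told apart.

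Genotype moved 1122 of 11006 tested genes (10.2%) at CT12 by limma's moderated F test (Benjamini-Hochberg adjusted p under 0.05). Without BRE replicate 2 the count was 634, and without BRE replicate 4 it was 657. The 10 smallest p-values belonged to Nr1d2, Dbp, Nr1d1, Per3, Npas2, Ttc9, Tef, Agpat3, Hs3st6 and Arsi, 6 of them clock genes, with adjusted p from 2.64e-11 to 7.08e-07. Between pairs of genotypes, limma called no gene for RERE against WT (0%), 130 for EpiRE against WT (1.18%) and 1220 for BRE against WT (11.1%). EpiRE against BRE gave 1040 genes (9.45%), RERE against EpiRE 45 (0.409%) and RERE against BRE 733 (6.66%). Counts with a change of at least 2-fold were 22 for EpiRE against WT, 146 for BRE against WT, 90 for EpiRE against BRE, 11 for RERE against EpiRE and 114 for RERE against BRE.

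**Figure D1:**
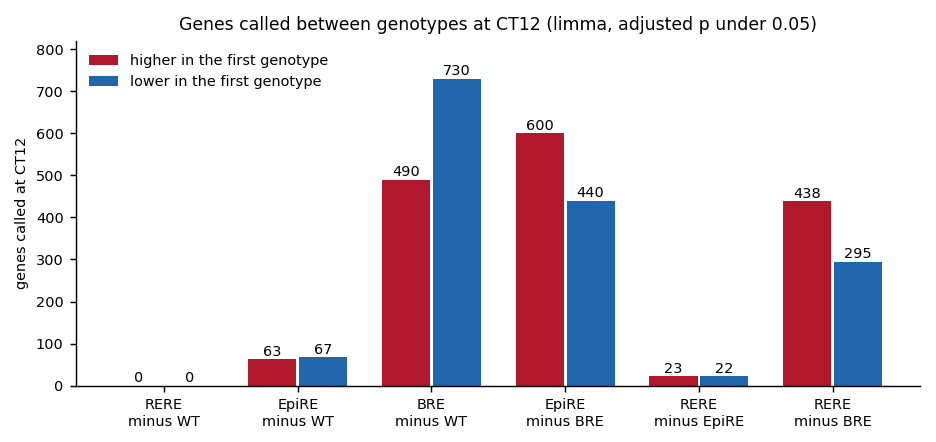
Number of genes called at CT12 for each pair of genotypes, split by direction, where higher and lower refer to the first genotype of each pair (limma, 11006 genes tested, 4 libraries a genotype). The pair RERE and WT has 0 genes on either side, and every pair with BRE has at least 295 on each side.

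Several of these counts fell when a single library was left out. Each such fit also has fewer libraries, so a fall does not by itself mark that library as outlying. The EpiRE against WT count was 77 without EpiRE replicate 1, 65 without WT replicate 3 and 78 without WT replicate 4. The BRE against WT count was 809 without WT replicate 1. The EpiRE against BRE count was 499 without EpiRE replicate 3, 503 without BRE replicate 2, 528 without BRE replicate 4, 614 without EpiRE replicate 4, 620 without EpiRE replicate 1 and 680 without BRE replicate 3. RERE against EpiRE gave 23 without EpiRE replicate 1, 25 without RERE replicate 3 and 28 without RERE replicate 1.

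Arntl, the targeted gene (chromosome 7, 113207465 to 113314126, plus strand, GRCm38), was read in every library. It had 9.93, 9.01, 7.01 and 8.63 RPKM in RERE, 17.9, 19.3, 17.2 and 13.4 in EpiRE, 12.8, 14.4, 13.2 and 16 in BRE, and 7.84, 7.87, 5.69 and 5.79 in WT. All EpiRE and BRE libraries lay above all RERE and WT libraries. The transcript was therefore higher, not absent, in BRE epidermis, where the allele stays stopped. The sources used here do not say where the stop cassette lies or whether gene counts tell a stopped transcript from a complete one, so this level does not check the genotype. On the log2 scale the difference from WT was 0.35 ± 0.14 (SE) in RERE (adjusted p = 0.740), 1.32 ± 0.14 in EpiRE (adjusted p = 0.000142), and BRE had 1.06 ± 0.14 (adjusted p = 0.00015, limma). EpiRE and BRE differed by 0.26 ± 0.14 (adjusted p = 0.247, limma).

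Among the other activators, Npas2 showed the widest spread of levels between genotypes. Npas2 (chromosome 1, 39193731 to 39363236, plus strand), a partner of BMAL1 in place of CLOCK, had 1.6, 2.41, 2.4 and 1.82 RPKM in RERE, 5.01, 6.6, 3.77 and 4.67 in EpiRE, 20.3, 19.8, 24.6 and 24.9 in BRE, and 2.28, 2.28, 2.65 and 2.27 in WT. BRE libraries stood far above the rest, EpiRE libraries came next, and RERE and WT libraries overlapped. It was 9.42-fold higher in BRE than in WT (3.24 ± 0.16 log2, adjusted p = 2.42e-09, limma) and 2.08-fold higher in EpiRE than in WT (1.05 ± 0.16, adjusted p = 0.00348). Clock rose less, by 0.57 ± 0.08 in BRE against WT (adjusted p = 0.000224, limma), and had 0.30 ± 0.08 in EpiRE against WT (adjusted p = 0.0876).

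Rora and Arntl2, also activators of the list, passed the test in neither EpiRE nor BRE against WT.

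Of the 9 clock repressors tested, 7 fell in BRE against WT (6.63% of all genes were called lower), Cry1 rose and Per1 did not pass the test. Nr1d1 (chromosome 11, 98767932 to 98775333, minus strand), which encodes REV-ERB alpha, had 53.4, 56.9, 102.3 and 56.3 RPKM in RERE, 74.0, 53.9, 68.3 and 49.9 in EpiRE, 4.12, 4.19, 4.17 and 3.57 in BRE, and 70.6, 66.7, 81.2 and 97.3 in WT. RERE, EpiRE and WT libraries overlapped, and the BRE libraries lay apart. It was 19.5-fold lower in BRE than in WT (−4.29 ± 0.18 log2, adjusted p = 2.69e-10, limma). In EpiRE it differed from WT by −0.36 ± 0.18 (adjusted p = 0.371, limma; 1.29-fold). EpiRE epidermis thus held 15.2 times the Nr1d1 level of BRE (3.92 ± 0.18, adjusted p = 2.11e-09).

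Its paralog Nr1d2, which encodes REV-ERB beta, had 35.2, 39.1, 48.3 and 38.4 RPKM in RERE, 25.2, 23.1, 27.2 and 27.6 in EpiRE, 4.6, 3.2, 4.44 and 3.8 in BRE, and 42.4, 42.6, 44.5 and 48.4 in WT. All EpiRE libraries were below all RERE and WT libraries and above all BRE libraries. The fall was 11.2-fold in BRE against WT (−3.48 ± 0.11 log2, adjusted p = 1.23e-11) and 1.73-fold in EpiRE against WT (−0.79 ± 0.11, adjusted p = 0.00161, limma). With the spread of all 96 libraries in place of the 16, the EpiRE call was lost (adjusted p = 0.111).

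The Per genes did not move alike. Per3, whose promoter window above holds the D-boxes, had 26.0, 30.6, 37.0 and 24.8 RPKM in RERE, 10.7, 9.59, 13.1 and 16.7 in EpiRE, 2.35, 2.2, 1.82 and 1.97 in BRE, and 32.3, 35.1, 25.1 and 31.7 in WT. The 3 levels, RERE with WT, EpiRE, and BRE, did not overlap. The fall against WT was 14.9-fold in BRE (−3.89 ± 0.16 log2, adjusted p = 2.66e-10) and 2.52-fold in EpiRE (−1.33 ± 0.16, adjusted p = 0.000603, limma). Per2, which encodes a core repressor, had 25.3, 27.8, 25.9 and 19.4 RPKM in RERE, 5.17, 7.91, 7.19 and 10.5 in EpiRE, 7.67, 10.7, 7.77 and 8.93 in BRE, and 27.2, 30, 32.0 and 27.3 in WT. For Per2 the EpiRE and BRE libraries overlapped (difference −0.22 ± 0.17 log2, adjusted p = 0.445), and both were below WT, EpiRE by −1.96 ± 0.17 (adjusted p = 5.2e-05) and BRE by −1.74 ± 0.17 (adjusted p = 1.12e-05, limma). Per1, which also responds to acute signals, averaged 49.6 ± 17.1 RPKM in RERE, 30.1 ± 2.43 in EpiRE, 39.4 ± 4.67 in BRE and 65.4 ± 33.3 in WT (SD, n = 4 each), and passed the test in no pair of genotypes.

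Cry1 was the one repressor that rose in BRE. It had 21.2, 21.8, 15.4 and 18.6 RPKM in RERE, 10.2, 17.0, 12.2 and 13 in EpiRE, 42.0, 44.9, 44.8 and 44.2 in BRE, and 17.9, 20.2, 18.5 and 15.3 in WT. The BRE level was 2.45-fold above WT (1.29 ± 0.13 log2, adjusted p = 1.65e-05, limma) and 3.41-fold above EpiRE (EpiRE minus BRE −1.77 ± 0.13, adjusted p = 1.03e-06). Cry2 fell by similar amounts in both, EpiRE minus WT being −0.49 ± 0.07 (adjusted p = 0.00154) and BRE minus WT −0.47 ± 0.07 (adjusted p = 0.00037, limma). Cry1 and Tef moved in opposite directions in BRE, and each has an E-box in the window shown above.

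Ciart (chromosome 3, 95878503 to 95882251, minus strand), which encodes a repressor of CLOCK and BMAL1, had 4.42, 4.3, 7.47 and 7.36 RPKM in RERE, 1.76, 1.99, 2.22 and 1.7 in EpiRE, 0.79, 0.773, 0.773 and 0.739 in BRE, and 4.89, 4.26, 8.38 and 7.72 in WT. The genotypes fell into the same 3 levels as for Per3. Ciart was, against WT, 7.88-fold lower in BRE (−2.98 ± 0.22 log2, adjusted p = 4.54e-07) and 3.17-fold lower in EpiRE (−1.67 ± 0.22, adjusted p = 0.00135, limma). Bhlhe40, an E-box repressor, fell by −1.24 ± 0.27 in BRE against WT (adjusted p = 0.00676, limma) and had −0.45 ± 0.27 in EpiRE (adjusted p = 0.465). Its relative Bhlhe41 was below the minimum level for testing.

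**Figure D2:**
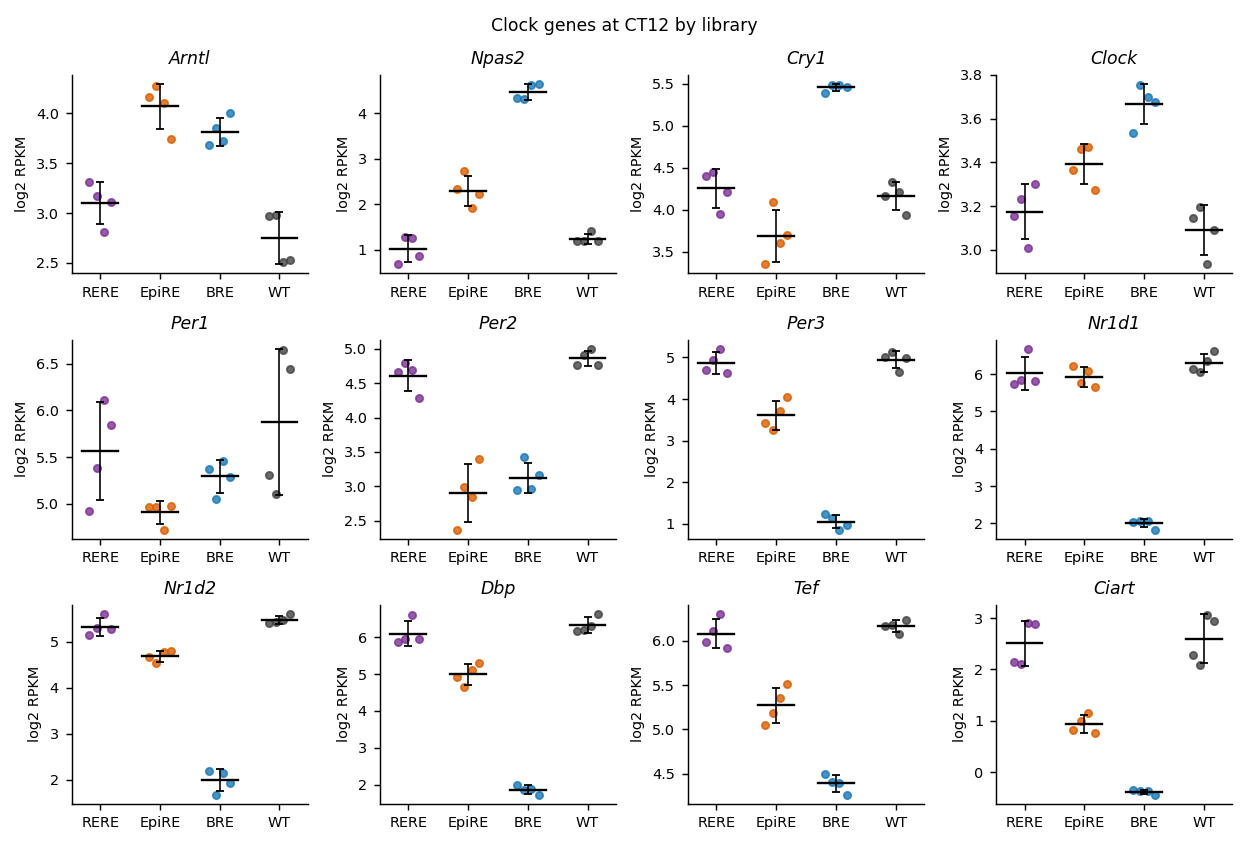
Level of 12 clock genes in each library at CT12 in log2 RPKM, in the order RERE, EpiRE, BRE, WT. Points are the 4 libraries of a genotype, horizontal lines their mean and bars the SD. Nr1d1 and Dbp show the lowest levels in BRE, while Npas2 and Cry1 show their highest levels there.

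The PAR bZIP factors carry the clock's signal to output genes. Dbp (chromosome 7, 45705088 to 45710203, plus strand) had 58.2, 61.4, 96.5 and 62.0 RPKM in RERE, 30.4, 24.9, 34.6 and 39.3 in EpiRE, 3.99, 3.59, 3.72 and 3.31 in BRE, and 72.2, 72.7, 79.2 and 98.9 in WT. RERE and WT libraries overlapped, and EpiRE and BRE each lay apart. The fall against WT was 22.0-fold in BRE (−4.46 ± 0.16 log2, adjusted p = 3.19e-11) and 2.51-fold in EpiRE (−1.33 ± 0.16, adjusted p = 0.000499, limma). With the spread of all 96 libraries the EpiRE call was lost (adjusted p = 0.14).

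Tef had 63.4, 69.4, 79.0 and 60.7 RPKM in RERE, 33.2, 36.3, 40.8 and 45.6 in EpiRE, 22.6, 21.2, 21.0 and 19.2 in BRE, and 71.8, 72.7, 67.7 and 75.4 in WT. Every EpiRE library was below every WT library and above every BRE library. The difference from WT was −0.89 ± 0.09 log2 for EpiRE (adjusted p = 0.000142) and −1.78 ± 0.09 for BRE (adjusted p = 4.54e-09, limma). Hlf fell in BRE (−0.62 ± 0.09, adjusted p = 0.000222, limma) and had −0.12 ± 0.09 in EpiRE (adjusted p = 0.566). Nfil3, which encodes a D-box repressor, averaged 7.2 ± 2.23 RPKM in RERE, 7.51 ± 3.07 in EpiRE, 15.6 ± 4.64 in BRE and 6.48 ± 3.1 in WT (SD, n = 4 each). It rose in BRE against WT by 1.38 ± 0.37 (adjusted p = 0.0241, limma), a call lost without BRE replicate 3 (adjusted p = 0.0662), BRE replicate 4 (0.0797) or WT replicate 2 (0.064).

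By list, 26 clock genes were tested. None was called for RERE against WT, 10 for EpiRE against WT (1.18% of all genes) and 16 for BRE against WT (11.1% of all genes). EpiRE against BRE gave 11 (9.45% of all genes), RERE against EpiRE 10 (0.409%) and RERE against BRE 16 (6.66%). The 9 repressors tested had a median difference of −0.79 in EpiRE against WT (0 higher, 5 lower) and −1.74 in BRE against WT (1 higher, 7 lower), where the median over all genes was 0.02 and −0.04. The last 7 clock list genes, outputs such as Usp2, Wee1, Nampt and Tsc22d3 together with the kinase genes Csnk1d and Csnk1e, had no call in any pair. Of the 16 clock genes called in BRE against WT, 11 had an EpiRE mean between BRE and WT, and the other 5 included Arntl, Per2, Cry1 and Cry2. How often this held over all genes called in BRE against WT was not counted.

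The pair RERE and WT tells whether epidermis with both restored clocks resembled that of intact mice at this time. No gene was called by limma, and the smallest adjusted p was 0.147. At an unadjusted p under 0.05 there were 726 genes, and limma-voom on recovered reads also called 0. Leaving out RERE replicate 2 gave 3 calls and leaving out EpiRE replicate 2 gave 2. The absence of calls does not show that the levels were equal: the 95% interval of a gene's log2 difference had a median half-width of 0.22. Among the clock genes, the interval was −0.42 to 0.27 for Per3, −0.57 to 0.10 for Dbp and −0.66 to 0.12 for Nr1d1. It was −0.62 to 0.11 for Per2 and −0.57 to 0.12 for Npas2. For Arntl the interval was 0.06 to 0.65, which left out 0, though its adjusted p was 0.74 (limma). Changes of the size seen in BRE for these genes lay outside those intervals.

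The 5 genes with the smallest p in this pair are given as values only. Hpgds, which encodes a prostaglandin D synthase, had 31.7, 34.3, 30.6 and 26.3 RPKM in RERE and 46.3, 46.0, 46.9 and 48.4 in WT, without overlap (−0.62 ± 0.10 log2, adjusted p = 0.147, limma). Hpgds had a mean of 27.6 ± 3.96 RPKM in EpiRE and 28.4 ± 2.27 in BRE (SD, n = 4 each), close to RERE. Tmem35a differed by 0.76 ± 0.14, Ndufa4l2 by −1.24 ± 0.25, Fas by −0.40 ± 0.08 and H2-Q7 by −0.45 ± 0.09, each with an adjusted p of 0.337.

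EpiRE against WT sets epidermis with a restored clock of its own beside that of intact mice. EpiRE mice kept the stopped allele in all cells that K14Cre does not reach, so this pair does not isolate the brain clock. Of the 130 genes called, 63 were higher (0.572%) and 67 lower (0.609%), and 10 of them were the clock genes above. Il33, which encodes an alarmin cytokine of keratinocytes, had 37.3, 41.0, 30.7 and 38.8 RPKM in RERE, 75.0, 62.8, 66.7 and 50.6 in EpiRE, 63.2, 64.0, 66.7 and 74.5 in BRE, and 33.2, 30, 21.1 and 22.9 in WT. EpiRE and BRE libraries overlapped and lay above those of RERE and WT. The rise in EpiRE against WT was 1.26 ± 0.14 log2 (adjusted p = 0.000262, limma).

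Cxcl14, which encodes a chemokine made by resting epidermis, showed the same split. It had 150.3, 122.9, 155.4 and 146.6 RPKM in RERE, 244.2, 355.8, 345.9 and 268.1 in EpiRE, 358.7, 314.7, 411.7 and 431.9 in BRE, and 169.5, 158.5, 161.6 and 126.1 in WT. Its rise against WT was 0.97 ± 0.13 log2 for EpiRE (adjusted p = 0.00153) and 1.3 ± 0.13 for BRE (adjusted p = 1.5e-05, limma). Also higher in EpiRE than in WT were the serpin genes Serpinb12 (1.94 ± 0.27) and Serpinb3b (1.34 ± 0.22), the protease inhibitor gene Stfa1 (1.92 ± 0.33), Rassf6 (1.67 ± 0.17), the metallothionein gene Mt4 (1.04 ± 0.17), the suprabasal keratin gene Krt1 (0.69 ± 0.12) and the retinol dehydrogenase gene Rdh12 (0.53 ± 0.08). Thy1, a T cell marker, rose by 1.15 ± 0.19 (adjusted p = 0.0063, limma), the only one of 6 T cell markers tested to do so. Its part in the other differences was not tested. Lower in EpiRE were Arg1 (−1.79 ± 0.35), which encodes arginase, Cwh43 (−1.07 ± 0.19) and the peptide transporter gene Slc15a1 (−0.92 ± 0.15). The Arg1 call was lost without EpiRE replicate 1 (adjusted p = 0.064), WT replicate 3 (0.0602) or WT replicate 4 (0.0655).

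**Figure D3:**
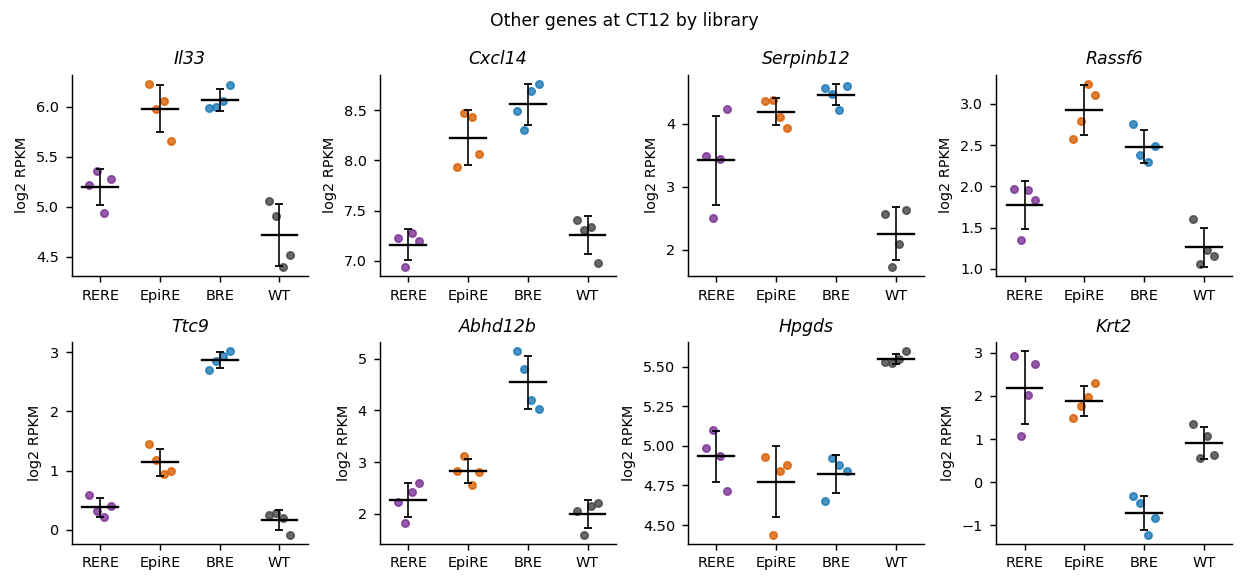
Level of 8 genes outside the clock lists in each library at CT12 in log2 RPKM, in the order RERE, EpiRE, BRE, WT. Points are the 4 libraries of a genotype, horizontal lines their mean and bars the SD. Il33 and Cxcl14 are high in both EpiRE and BRE, and Ttc9 and Abhd12b reach their highest means in BRE.

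BRE against WT compares epidermis whose own clock stayed stopped with that of intact mice. Of the 1220 genes called, 490 were higher (4.45%) and 730 lower (6.63%). The split depends on scaling: with median-of-ratios scaling, which shifted single BRE libraries by −0.09 to 0.03 log2, 654 were higher and 627 lower. Ttc9 had 1.5, 1.25, 1.16 and 1.32 RPKM in RERE, 2.72, 2.27, 1.92 and 2.0 in EpiRE, 6.48, 7.18, 7.68 and 8.06 in BRE, and 1.19, 1.22, 1.15 and 0.945 in WT. Ttc9 was 6.53-fold higher in BRE than in WT (2.71 ± 0.14 log2, adjusted p = 2.46e-09, limma), and EpiRE lay between.

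Other large rises in BRE were those of H19, an imprinted non-coding RNA (4.07 ± 0.57 log2), the hydrolase gene Abhd12b (2.54 ± 0.22), the serpin genes Serpina3b (2.34 ± 0.50) and Serpinb12 (2.21 ± 0.27), the tissue factor gene F3 (2.09 ± 0.39), Slc46a2 (1.86 ± 0.25) and Mt4 (1.56 ± 0.17). H19 was low throughout, with 6.13, 2.91, 5.77 and 8.41 RPKM in BRE and 0.762, 0.271, 0.503 and 0.105 in WT. Large falls outside the clock were those of Sncg (−3.05 ± 0.53), which encodes gamma-synuclein, the sulfatase gene Arsi (−2.53 ± 0.19), Irf4 (−2.27 ± 0.41), which encodes a transcription factor of immune cells and melanocytes, the collagen receptor gene Ddr2 (−2.23 ± 0.43) and Gadl1 (−2.05 ± 0.51). Of the melanocyte markers, 1 of 2 tested was called, Pmel (−0.63 ± 0.20, adjusted p = 0.0493, limma; lost in 16 of the 23 alternatives that tested it), and the summed level of 6 was 4.39 to 6.78 RPKM in BRE and 5.6 to 8.21 in WT. Tchh, the only 1 of 7 hair shaft markers tested, was lower as well (−0.63 ± 0.16, adjusted p = 0.0149, limma). The summed level of the 7 was 2.6 to 3.85 RPKM in BRE and 5.3 to 6.36 in WT, without overlap. The part of these cells in the falls was not tested.

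Of 20 S phase genes, which serve DNA replication, 16 fell in BRE against WT (median −1.01, where all genes had −0.04 and 6.63% were called lower). In RERE 15 were higher than in BRE (median 1.04, where all genes had 0.03 and 3.98% were called higher). Mcm2, which encodes a subunit of the replicative helicase, had 18.8, 18, 14.3 and 20.8 RPKM in RERE, 13.6, 9.25, 22.4 and 13.7 in EpiRE, 8.68, 7.64, 6.72 and 7.75 in BRE, and 23.2, 18.8, 17.8 and 16.7 in WT. All BRE libraries were below all others, and the EpiRE libraries were spread from near BRE to the WT range. The fall in BRE against WT was −1.31 ± 0.20 log2 (adjusted p = 0.000449, limma).

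E2f1, a transcription factor of the G1/S switch, fell by −1.47 ± 0.20 log2 in BRE against WT (adjusted p = 0.00019), Mcm5 by −1.44 ± 0.25 (0.00139), and Gins2, another helicase subunit gene, by −1.42 ± 0.22 (0.000633, limma). The 4 members without a call were Rrm1, Rrm2, Tyms and Ccne1. Of 8 D cyclin, CDK and CDK inhibitor genes tested, 3 were lower in BRE than in WT (6.63% of all genes were). Another 2 were higher (4.45% of all genes were), and the rest had no call. The lower ones were Ccnd1 (−0.94 ± 0.13, adjusted p = 0.000253), Ccnd2 (−0.91 ± 0.12, adjusted p = 0.000107) and Cdk4 (−0.33 ± 0.08, adjusted p = 0.0174, limma). The CDK inhibitor genes Cdkn2b (0.44 ± 0.10, adjusted p = 0.00776) and Cdkn1a (0.32 ± 0.09, adjusted p = 0.0276, limma) were higher. The Cdk4 call was lost without BRE replicate 4 or WT replicate 1. The Cdkn1a call was lost without BRE replicate 3 or 4 or WT replicate 1 or 2. None of 20 G2/M genes was called between any pair of genotypes, and their median in BRE against WT was 0.49. Without RERE replicate 3 or 4, which enter only the shared spread, 3 were higher in BRE than in WT, and without RERE replicate 4, 3 were lower in RERE than in BRE.

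In EpiRE the S phase genes were not called against WT or RERE, with medians of −0.45 for EpiRE minus WT and 0.41 for RERE minus EpiRE. Without EpiRE replicate 3, whose S phase mean was 3.58 log2 RPKM beside 2.58 to 2.93 in the other 3 libraries, 5 were lower in EpiRE than in WT. Against BRE, 10 were higher in EpiRE (median 0.48, where all genes had 0.06 and 5.45% were called higher). That count fell to 3 without EpiRE replicate 3, the library with the highest Mcm2, to 4 without BRE replicate 2, 3 or 4, to 5 without EpiRE replicate 1 and to 6 without EpiRE replicate 4. It was 4 when only the spread of these 2 genotypes was used.

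**Figure D4:**
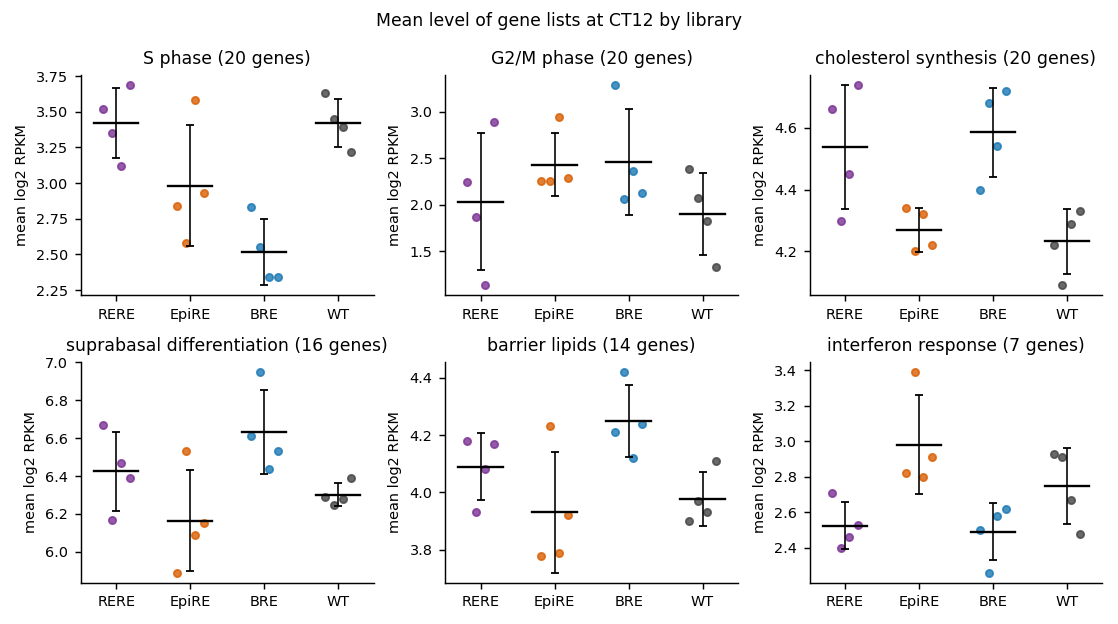
Mean level of 6 gene lists in each library at CT12 in log2 RPKM, in the order RERE, EpiRE, BRE, WT, with the number of genes tested in each title. Points are libraries, horizontal lines their mean and bars the SD over 4 libraries. The S phase mean is 2.34 to 2.83 in BRE libraries and 3.22 to 3.63 in WT libraries, while G2/M means overlap between genotypes.

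Cholesterol synthesis genes were higher in BRE than in WT in 9 of 20 cases (median 0.32; 4.45% of all genes were called higher), and none was lower. Fdps, which encodes farnesyl diphosphate synthase, had 90.2, 66.3, 78.7 and 91.1 RPKM in RERE, 69.5, 54.8, 66.0 and 60.6 in EpiRE, 104.0, 111.2, 95.1 and 93.2 in BRE, and 54.6, 57.6, 63.4 and 70.7 in WT. It rose by 0.72 ± 0.11 log2 in BRE against WT (adjusted p = 0.000445, limma), and RERE libraries reached from the WT range almost to the BRE range. No gene of the list was called for RERE against BRE (median −0.06). With the spread of all 96 libraries, the BRE against WT count was 5.

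Differentiation genes rose in BRE only in part. Of 16 suprabasal genes, Ivl (0.92 ± 0.17 log2, adjusted p = 0.00207) and Krtdap (0.62 ± 0.10, adjusted p = 0.000641, limma) were higher in BRE than in WT. The number was 5 without WT replicate 4, and 4 with a replicate block or without BRE replicate 1 or RERE replicate 2 or 4. Ivl, which encodes the cornified envelope protein involucrin, had 47.1, 44.3, 35.3 and 40.1 RPKM in RERE, 33.0, 46.4, 27.8 and 35.1 in EpiRE, 65.0, 111.0, 64.9 and 86.9 in BRE, and 39.2, 45.0, 39.6 and 45.6 in WT. Barrier lipid genes gave 4 of 14 higher (4.45% of all genes were), Abca12 (0.58 ± 0.14), Elovl4 (0.46 ± 0.09), Abhd5 (0.27 ± 0.06) and Cyp4f39 (0.25 ± 0.07). That number was 7 with median-of-ratios scaling and 2 with the spread of all 96 libraries. Of 11 basal keratinocyte genes only the integrin gene Itga3 passed (0.38 ± 0.11, adjusted p = 0.0324, limma), a call lost without any 1 of BRE replicates 2, 3 and 4 or WT replicates 1, 2 and 4.

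Prdx6, which encodes a peroxidase, and Sod2, the mitochondrial superoxide dismutase gene, were the antioxidant genes called in BRE against WT, 2 of 16, a share close to the 11.1% of all genes called. Prdx6 had 87.6, 81.3, 89.1 and 85.4 RPKM in RERE, 83.2, 75.6, 82.9 and 89.1 in EpiRE, 59.3, 50.1, 51.5 and 53.2 in BRE, and 84.9, 83.3, 80.9 and 84.5 in WT, so only BRE stood apart (BRE minus WT −0.64 ± 0.06 log2, adjusted p = 6e-06, limma). Sod2 averaged 15.3 ± 0.987 RPKM in RERE, 11.8 ± 0.736 in EpiRE, 9.74 ± 0.461 in BRE and 14.7 ± 0.85 in WT (SD, n = 4 each). It fell by −0.60 ± 0.07 in BRE (adjusted p = 3.09e-05) and by −0.33 ± 0.07 in EpiRE (adjusted p = 0.0247, limma) against WT, and the EpiRE call was lost in 7 of 24 alternatives. The catalase gene Cat was the other antioxidant gene called in EpiRE against WT (−0.43 ± 0.10, adjusted p = 0.0413, limma), a call lost in 12 of 24 alternatives. Acadl, an enzyme of fatty acid oxidation, rose by 0.69 ± 0.06 in BRE (adjusted p = 3.04e-06) and 0.35 ± 0.06 in EpiRE (adjusted p = 0.00799, limma). Glycolysis, nucleotide excision repair, interferon response and immediate early genes had no call in BRE against WT. In the alternatives, up to 3 glycolysis genes were lower (without WT replicate 4) and at most 1 was higher. Nucleotide excision repair and interferon response each had at most 1 gene lower there. Oxidative phosphorylation had 1 of 19 called, Ndufa4 (0.44 ± 0.08).

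EpiRE against BRE sets epidermis with its own clock beside epidermis with the brain clock. Of the 1040 genes called, 600 were higher in EpiRE (5.45%) and 440 lower (4%), but with median-of-ratios scaling the split turned round, with 402 higher and 636 lower. Outside the clock, EpiRE had more Crispld2 (2.47 ± 0.27 log2, adjusted p = 4.45e-05), Sncg (3.15 ± 0.53) and Arsi (2.24 ± 0.19), and less F3 (−1.86 ± 0.39) and Ttc9 (−1.73 ± 0.14, limma). Among suprabasal genes 8 of 16 were lower in EpiRE (4% of all genes were), among them Flg2 (−1.47 ± 0.39), Ivl (−1.19 ± 0.17), Cnfn (−1.19 ± 0.36) and Tgm1 (−0.92 ± 0.24), and Krt1 was higher (0.40 ± 0.12). This number was 3 without any 1 of BRE replicates 2 and 4 or EpiRE replicates 1, 3 and 4. Cholesterol synthesis had 7 of 20 lower in EpiRE (median −0.32). That count was 3 without BRE replicate 2 or 4, 4 without EpiRE replicate 1, 3 or 4, and 2 with the spread of all 96 libraries. Barrier lipid genes had 3 of 14 lower, 7 without EpiRE replicate 2 and 6 with median-of-ratios scaling. The interferon response genes Bst2 (1.33 ± 0.30) and Ifitm3 (0.65 ± 0.16) were higher in EpiRE, 2 of 7 tested. Without BRE replicate 2 neither was called (adjusted p = 0.05 for Bst2 and 0.0583 for Ifitm3), and Ifitm3 also lost its call without BRE replicate 3 or 4 or EpiRE replicate 3 or 4.

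The hair follicle markers Postn (−0.73 ± 0.21 log2) and Lrig1 (−0.30 ± 0.09) were lower in EpiRE than in BRE, 2 of 6 tested (4% of all genes were). The summed level of 8 follicle markers was 270.5 to 390.3 RPKM in EpiRE and 358.2 to 669.0 in BRE. Their part in the other differences was not tested. Both calls were lost in 11 or more of 24 alternatives.

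RERE against EpiRE shows what differed when the brain clock was restored beside the epidermal one. Of the 45 genes called, 23 were higher in RERE (0.209%) and 22 lower (0.2%). The 10 clock genes among them included Per2 (1.71 ± 0.17 log2, adjusted p = 0.000365), Ciart (1.57 ± 0.22), Per3 (1.26 ± 0.16), Dbp (1.09 ± 0.16), Tef (0.81 ± 0.09), Nr1d2 (0.64 ± 0.11) and Cry2 (0.51 ± 0.07), higher in RERE, and Npas2 (−1.28 ± 0.16) and Arntl (−0.97 ± 0.14, limma), lower. Nr1d1 had 0.09 ± 0.18 (adjusted p = 0.892). With the spread of all 96 libraries, Per2 (adjusted p = 0.107), Tef (0.0834), Nr1d2 (0.37) and Dbp (0.389) lost their calls. Outside the clock, RERE had less Rassf6 (−1.15 ± 0.17), Cxcl14 (−1.06 ± 0.13, adjusted p = 0.00125), Thy1 (−0.97 ± 0.19), the skin chemokine gene Ccl27a (−0.85 ± 0.16) and Il33 (−0.78 ± 0.14), and more Smim24 (1.03 ± 0.19), Slc15a1 (0.86 ± 0.15) and Pgm2l1 (0.81 ± 0.13). The Il33 call was lost without EpiRE replicate 1 or 3 or RERE replicate 1 or 3, and the Thy1 call in 13 of 24 alternatives. Ccl27a lost its call without any 1 EpiRE library and with both other estimates of the spread. Smim24 lost it without EpiRE replicate 2, 3 or 4, RERE replicate 3 or 4 or with the spread of all 96 libraries, and Slc15a1 without EpiRE replicate 1 or 3 or RERE replicate 1.

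RERE against BRE compares the same brain restoration with and without the epidermal clock. Of the 733 genes called, 438 were higher in RERE (3.98%) and 295 lower (2.68%). The keratin gene Krt2 had 7.54, 2.09, 4.09 and 6.7 RPKM in RERE, 2.81, 3.39, 3.92 and 4.92 in EpiRE, 0.801, 0.716, 0.432 and 0.566 in BRE, and 2.55, 1.47, 2.1 and 1.56 in WT. Krt2 was 7.45-fold higher in RERE than in BRE (2.90 ± 0.34 log2, adjusted p = 7.17e-05, limma). The growth factor gene Epgn (−1.79 ± 0.25), the neuropeptide gene Calcb (−1.67 ± 0.28) and Ly6c1 (−1.45 ± 0.19) were lower in RERE. The 9 clock repressors had a median of 1.49 in this pair (7 higher, 1 lower).

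The other 5 times show whether a difference at CT12 departs from its mean over the rest of the day. In an interaction test over all 96 libraries (limma, difference at CT12 minus its mean at the other 5 times), no gene was called for RERE against WT (0%; 346 at an unadjusted p under 0.05, 0 with limma-voom), 81 for EpiRE against WT (0.736%; 45 higher, 0.409%, and 36 lower, 0.327%) and 67 for BRE against WT (0.609%; 15 higher, 0.136%, and 52 lower, 0.472%). Arntl departed by 1.25 ± 0.18 log2 for EpiRE (adjusted p = 3.91e-06) and 1.27 ± 0.18 for BRE (adjusted p = 2.51e-06): its difference from WT at CT12, 1.32 and 1.06, stood beside means of 0.07 and −0.21 at the other times. Per3 was below WT by −1.33 in EpiRE and −3.89 in BRE at CT12, beside 0.55 and −1.53 at the other times. Il33 in EpiRE was 1.26 above WT at CT12 and 0.12 at the other times (departure 1.14 ± 0.16, adjusted p = 2.7e-06, limma). Of the 81 EpiRE genes, 79 were also called between CT12 and the other times in WT (7.09% of all genes), and none in EpiRE. Of the 67 BRE genes, 24 were also called between CT12 and the other times in BRE (4.34% of all genes). The same libraries enter both tests, so these overlaps are in part built in. Of the S phase genes, 8 of 20 departed downwards in BRE and none in EpiRE, among them Gins2 (−1.44 ± 0.29, adjusted p = 0.0027) and Mcm6 (−0.94 ± 0.19, adjusted p = 0.00371, limma).

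These counts also fell when a single library was left out. The EpiRE count was 34 without EpiRE replicate 1, 39 without WT replicate 3, 49 without WT replicate 4 and 52 without EpiRE replicate 3. The BRE count was 27 without WT replicate 1, 28 without BRE replicate 4, 34 without BRE replicate 3, 36 without WT replicate 2, 37 without BRE replicate 2 and 41 without WT replicate 3.

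**Figure D5:**
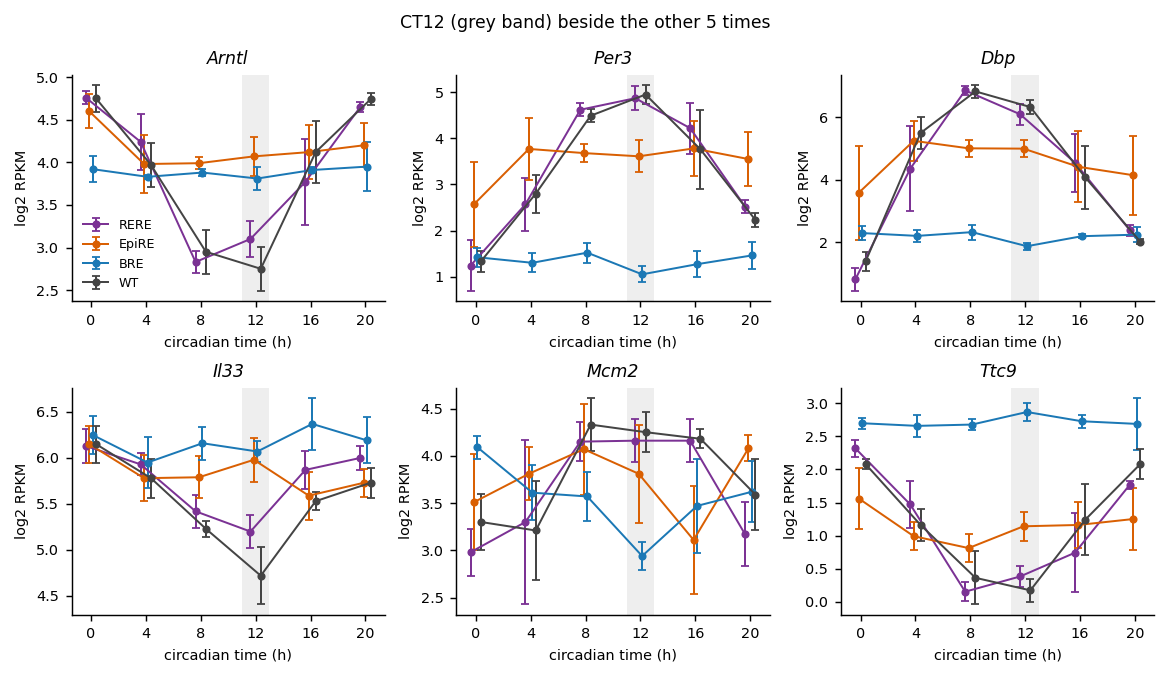
Mean level of 6 genes over 6 circadian times in log2 RPKM for each genotype, with the SD over 4 libraries as bars and CT12 as a grey band. At CT12, RERE and WT are near their lowest Arntl and highest Per3 levels, while BRE stays between 3.81 and 3.95 for Arntl and between 1.05 and 1.52 for Per3 at all 6 times.

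Within each genotype, CT12 was also set against the mean of the other 5 times, with a spread shared by all genotypes and times. This test does not see a rhythm whose level at CT12 lies near its mean over the day. The counts therefore do not rank the genotypes. Limma called 356 genes in RERE (3.23%; 167 higher, 1.52%, and 189 lower, 1.72%), none in EpiRE (0%), 478 in BRE (4.34%; 155 higher, 1.41%, and 323 lower, 2.93%) and 780 in WT (7.09%; 322 higher, 2.93%, and 458 lower, 4.16%). EpiRE had 432 genes at an unadjusted p under 0.05, 0 with limma-voom, 10 with no filter on low values and 1 without EpiRE replicate 2 or 3. The RERE and WT libraries are disjoint, and 200 genes were called in the same direction in both, 56.2% of the RERE calls and 25.6% of the WT calls, with 0 in opposite directions. BRE and WT had 123 in the same direction (25.7% of the BRE calls and 15.8% of the WT calls) and 2 in opposite directions.

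The RERE count fell to 205 without RERE replicate 1, 214 without replicate 2 or 4 and 144 without replicate 3. In BRE it fell to 90, 142 and 143 without BRE replicates 2, 3 and 4. WT gave 406, 399 and 368 without WT replicates 2, 3 and 4.

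Of the 26 clock genes tested, 12 were called between CT12 and the other times in RERE (3.23% of all genes) and 15 in WT (7.09% of all genes). Most of the 356 and 780 genes called there lay outside the clock lists. Per2 stood above its mean at the other times by 2.99 ± 0.39 log2 in RERE (adjusted p = 7.91e-08) and 3.09 ± 0.39 in WT (adjusted p = 2.26e-08), Dbp by 2.30 ± 0.35 and 2.36 ± 0.35, and Per3 by 1.84 ± 0.23 and 2.02 ± 0.23, while Arntl stood below it by −0.95 ± 0.13 in RERE and −1.36 ± 0.13 in WT (adjusted p = 5.13e-13, limma). In BRE, of 26 clock genes only Tsc22d3, which also responds to glucocorticoids, was called (0.95 ± 0.29, adjusted p = 0.0407, limma), beside 4.34% of all genes. Dbp at CT0, CT4, CT8, CT12, CT16 and CT20 had mean log2 RPKM of 0.81, 4.35, 6.85, 6.09, 4.54 and 2.38 in RERE, 3.58, 5.24, 5.0, 4.99, 4.41 and 4.14 in EpiRE, 2.29, 2.2, 2.32, 1.87, 2.19 and 2.24 in BRE, and 1.39, 5.49, 6.82, 6.32, 4.07 and 2.02 in WT. The gap between EpiRE and WT at CT12 was thus of a sign opposite to that at CT0 and CT20.

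Of 20 S phase genes, 8 were called in RERE, all higher at CT12 than at the other times (1.52% of all genes were). In WT only 2 of 20 were called, both higher (2.93% of all genes were). In BRE 8 of 20 were called, all lower (2.93% of all genes were). Mcm2 over the 6 times had mean log2 RPKM of 2.98, 3.30, 4.15, 4.16, 4.16 and 3.17 in RERE, 3.51, 3.81, 4.07, 3.81, 3.11 and 4.08 in EpiRE, 4.09, 3.61, 3.57, 2.94, 3.47 and 3.62 in BRE, and 3.30, 3.21, 4.33, 4.25, 4.18 and 3.59 in WT. CT12 was the lowest time for Mcm2 in BRE, and lay within the high stretch from CT8 to CT16 in RERE and WT. G2/M genes were lower at CT12 than at the other times in WT (10 of 20 called, beside 4.16% of all genes, median −0.79). Among them was Cenpf (−1.23 ± 0.32, adjusted p = 0.00838, limma), which encodes a kinetochore protein. In RERE none was called, with a median of −0.41. Of 14 glucocorticoid response genes, 2 were higher at CT12 in BRE (1.41% of all genes were), Fkbp5 and Tsc22d3, and 3 in WT (2.93% of all genes were), Fkbp5, Tsc22d3 and Zbtb16, with Fkbp5 at 1.53 ± 0.46 in BRE (adjusted p = 0.0367) and 1.57 ± 0.46 in WT (adjusted p = 0.0226, limma).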

How the data were processed

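RNA was read from 16 epidermal libraries at CT12, with the other 80 used only for the comparisons of times. The authors deposited log2 RPKM values per gene and library, per the file headers and labels. HISAT2 2.2.1, SAMtools 1.3.1, Trimmomatic 0.36, featureCounts 1.6.0, edgeR and the mm10 genome are named in the submitters' processing notes; whether molecular identifiers or strand were used in counting was not stated. Reads were recovered from the steps between values: 99.99% of 22497 genes came out whole, 99.973% of their values within 0.1 read, with a prior of 0.25 reads, and the genes hold 95.2 to 96.1% of the depth. RPKM values printed here are the deposited log2 values turned back to a linear scale.

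The 11006 genes averaging 0 log2 RPKM or more over the CT12 libraries were fitted in R 4.3.3 with limma 3.58.1 on the deposited log2 values, genotype as a factor of 4, and p-values were adjusted by Benjamini-Hochberg over all tested genes with a threshold of 0.05. Comparisons of CT12 with the other 5 times used all 96 libraries. Fold changes are on the deposited log2 scale, whose prior understates the change of low genes. The procedure was tested on simulated data. Alternatives were limma-voom on recovered reads, log2(RPKM + 1), median-of-ratios scaling, no filter, a minimum of 2 log2 RPKM, a replicate block, the spread of 2 genotypes alone or of all 96 libraries, and leaving out each library. A further 96 library columns in companion tables were not used.

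Named genes were all clock list genes, up to 10 higher and 10 lower genes per pair by size of difference (without overlap and with at least 2 log2 RPKM in the higher group), up to 4 called members per list and pair, the genes with the smallest p over times and the 10 with the smallest p of the F test; list members beyond these were named after their values were seen. Some genes are counted but not reported here by name. The members and lists were chosen with earlier results of these data known. Gene positions are from GENCODE by Ensembl ID, and promoters from RefSeq.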

Additional observations from a re-analysis of the deposited data

Results flagged for a closer look

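A single library stood apart from the other 3 of its genotype in 12 of 200 sets of 4 values examined, where chance gives about 1 in 20 groups, or 10. On the log2 RPKM scale these were Nr1d1 (6.68) and Dbp (6.59) in RERE replicate 3. In EpiRE they were Per1 (4.72) and the G2/M list mean (2.94) in replicate 3, and the clock activator mean (3.49) and the epidermal water and retinoid mean (4.25) in replicate 2. In BRE they were Arntl2 (3.32) and Tsc22d3 (6.2) in replicate 1 and Nr1d1 (1.84) in replicate 4. In WT they were Npas2 (1.41) and Cry2 (4.33) in replicate 3 and Csnk1e (3.3) in replicate 4.

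The difference from WT at CT12 departed from its mean at the other 5 times for 81 genes in EpiRE and 67 in BRE, by limma's interaction test. For EpiRE, genes with small p departed by 1.14 (Il33), 1.25 (Arntl), 1.15 (Cxcl14), −1.88 (Per3), 0.55 (Il13ra1), 0.56 (Agpat3) and −0.86 (Pdxk) log2 units. For BRE such genes departed by −2.37 (Per3), 1.27 (Arntl), 1.40 (Ttc9), −2.04 (Mthfd1l), −0.82 (Donson), −2.75 (Dbp) and −0.87 (Pdxk).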

How the results depend on the processing

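Leaving out 1 library at a time gave 634 to 1229 genes differing among the genotypes, 0 to 3 for RERE against WT, 65 to 148 for EpiRE against WT, 809 to 1302 for BRE against WT, 499 to 1441 for EpiRE against BRE, 23 to 59 for RERE against EpiRE and 498 to 837 for RERE against BRE. Departures from the other times gave 0 to 0 for RERE, 34 to 102 for EpiRE and 27 to 75 for BRE against WT. CT12 against the other times gave 144 to 367 genes in RERE, 0 to 1 in EpiRE, 90 to 605 in BRE and 368 to 799 in WT.

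Among the other alternatives, 2 counts moved by more than 1.5 times: the EpiRE departures were 46 with the spread of the 2 genotypes alone, and CT12 in EpiRE gave 10 genes with no filter on low values; the cause was not tested. Median-of-ratios scaling gave 654 higher and 627 lower for BRE against WT and 402 higher and 636 lower for EpiRE against BRE. Named genes kept their call in every alternative that tested them (23 or 24) for 20 of 29 in EpiRE against WT, 49 of 64 in BRE against WT, 29 of 58 in EpiRE against BRE, 8 of 25 in RERE against EpiRE and 39 of 51 in RERE against BRE, and none reversed.

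The replicate numbers do not pair the libraries: 5 of 24 same-number pairs correlated above 0.1 (−0.21 to 0.18), and 2 of 16 libraries correlated best with their own number. A replicate block gave 1006 genes among the genotypes, 0 for RERE against WT, 122 for EpiRE against WT, 1185 for BRE against WT, 948 for EpiRE against BRE, 38 for RERE against EpiRE and 705 for RERE against BRE. With 4 mice a genotype and 11.1 to 18.5 M reads a library, the median 95% interval of a difference spans 0.22 log2 units either side. That interval is not adjusted for the number of genes tested, and Hpgds at −0.62 in RERE against WT did not pass.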

Other observations

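Genes of epidermal water and retinoid handling were higher in BRE than in WT in 3 of 8 cases (4.45% of all genes were), Cxcl14, the retinol dehydrogenase gene Rdh12 (0.85 ± 0.08 log2, adjusted p = 1.12e-05) and the retinoic acid carrier gene Crabp2 (0.71 ± 0.15, adjusted p = 0.00517, limma). In EpiRE, 2 of 8 were higher than in WT (0.572% of all genes were), Cxcl14 and Rdh12. Within RERE and WT, Rdh12 was lower at CT12 than at the other times, by −0.43 ± 0.07 and −0.48 ± 0.07. Glul, which encodes glutamine synthetase, was higher at CT12 in RERE (0.88 ± 0.26), BRE (1.00 ± 0.26) and WT (1.13 ± 0.26, limma).

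In WT, 4 of 12 genes of the unfolded protein response were lower at CT12 than at the other times (4.16% of all genes were). These were the chaperone genes Calr (−0.42 ± 0.12), Hsp90b1 (−0.37 ± 0.11), Pdia6 (−0.34 ± 0.11) and Pdia3 (−0.31 ± 0.08). Herpud1 was higher (0.39 ± 0.11, limma), as were 2.93% of all genes. Oxidative phosphorylation had 6 of 19 lower in WT (4.16% of all genes were), among them the ATP synthase genes Atp5a1, Atp5b and Atp5c1. The list median was −0.17 beside −0.01 for all genes. Sod2 was higher at CT12 than at the other times in RERE (0.45 ± 0.06) and WT (0.43 ± 0.06). The SD of Dbp over the 4 EpiRE libraries was 0.28 log2 units at CT12, beside 1.5 at CT0 and 1.27 at CT20.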
